A study of Mus musculus with 44 samples.

Results

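Batch 1 of a mouse hypothalamus small RNA study set an oligonucleotide against miR-132 beside a control oligonucleotide, and its 8 libraries are those that the labels place in batch 1: AM132 replicates 1 to 4 and AM608 replicates 1 to 4, of 44 libraries in all. Every miRNA and every tRNA fragment (tRF) counted in them was examined, without selection on the values. No miRNA and no tRF differed between AM132 and AM608 past an adjusted p of 0.05. The 3p-to-5p ratio of miR-132, tested in batch 1 only, was lower in all 4 AM132 libraries than in any AM608 library. The level of miR-132-3p itself overlapped between the groups. Read from the levels of its arms and not tested, the ratio was also lower in AM132, without overlap, in batch 2. In batch 3 it overlapped between the groups and was higher on average in AM132.

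All 8 libraries came from hypothalamus of C57Bl/6J mice made obese by 11 weeks of a high fat diet, a diet that both groups shared. The AM132 mice received a 16-nt oligonucleotide, built with locked nucleic acids (LNA), that pairs with mature miR-132. The AM608 mice received one of 15 nt complementary to miR-608, a miRNA of primates, so both groups were injected and no uninjected obese mice are among them. Both oligonucleotides were given intravenously at 3.3 mg/kg on 3 consecutive days, and tissue was taken 7 days after treatment. Locked nucleic acids are modified nucleotides that bind RNA tightly and resist degradation. The injection was systemic, and the labels do not give an oligonucleotide level in the hypothalamus. They number the samples within a group and do not say that each is a separate mouse, so the p-values measure only the spread between these samples. Batches 2 and 3, used below to see where batch 1 differs, held 8 and 4 libraries of each of the same groups.

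miR-132 and miR-212 are cut from neighbouring hairpins of 1 transcript that neurons produce in response to activity and to the transcription factor CREB. Each hairpin gives a 5p and a 3p arm, and the 3p arms share a seed, the stretch of the miRNA that pairs with target mRNAs. An anti-miR oligonucleotide binds the mature strand; it can hold it in a duplex or lead to its loss, and it does not act on the other arm by base pairing. tRFs are pieces cut from transfer RNAs. A 5'-half or 3'-half ends or begins at the anticodon loop, a 5'-tRF or 3'-tRF is another piece with an end of the tRNA, and an internal fragment (i-tRF) lacks both ends.

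The libraries held 3490736 to 5815385 miRNA counts and 42819 to 144316 tRF counts, so tRFs carried much wider counting error. AM132 1 had the fewest tRF counts. After a filter on low counts, 527 of 1978 miRNAs and 501 of 17051 tRFs were tested; these held 99.97% and 94.75% of the counts. The biological coefficient of variation was 20.7% for miRNAs and 50.8% for tRFs, and the median standard error of a log2 fold change was 0.178 and 0.455. In simulated data of this design, 79.1% of miRNAs changed by 1 log2 unit were recovered over 520 features and 40.3% of those changed by 0.5, whereas 18.5% of tRFs changed by 1 and 84.1% of those changed by 2 were recovered over 481 features. Each simulation changed 200 features at once and drew every feature independently. These rates therefore do not carry over to data where few features change or where libraries deviate together. Pairs of libraries stood apart along lines that cross the groups. In the miRNA table AM132 3 and AM608 3 lay at 8.73 and 5.91 on the first principal component (42.8% of variance), above the other 6 libraries. In the tRF table AM132 1 lay at 26.8 and AM608 1 at -19.5, the opposite ends of the first component (57.9% of variance).

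The mature arms of the target hairpin and of its neighbour are shown because the comparison starts with them. Capitals mark the seed, bases 2 to 8, and the sequences are from RefSeq on GRCm38.p6.
miR-132-3p: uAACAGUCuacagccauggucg
miR-212-3p: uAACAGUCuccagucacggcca
miR-132-5p: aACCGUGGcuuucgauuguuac
miR-212-5p: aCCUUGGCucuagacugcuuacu
The hairpin of Mir132 lies at chr11:75173682-75173747 and that of Mir212 at chr11:75173388-75173478, both on the plus strand within an intron of the processed transcript 1700016P03Rik. All but 76 of the 527 tested miRNAs had a RefSeq mature sequence, and among these miR-132-3p and miR-212-3p were the 2 with the seed AACAGUC.

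The level of miR-132-3p, the strand that the oligonucleotide is complementary to, was 1238, 1023, 887 and 1157 CPM (counts scaled to a common library size, by TMM over the 8 libraries) in AM132, against 1251, 1215, 1216 and 1087 in AM608. The groups overlapped, since AM132 1 and AM132 4 lay above AM608 4. AM132 averaged 10.06 ± 0.21 log2 CPM, against 10.22 ± 0.09 for AM608 (SD over 4 libraries per group). The difference of -0.16 is one that an exact permutation test over 70 splits did not tell from the spread (2-sided p = 0.229). In the edgeR quasi-likelihood fit the log2 fold change, AM132 minus AM608, was -0.15 ± 0.11 (SE; 95% interval -0.41 to 0.11; adjusted p = 0.999). The wider fit of 32 libraries, described further on, gave the same effect a 95% interval of -0.79 to 0.45.

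miR-132-5p comes from the opposite side of this hairpin, and the oligonucleotide does not match it. It was at 2236, 2232, 1817 and 2391 CPM in AM132 and at 2080, 1889, 2143 and 1826 CPM in AM608. Its log2 fold change was 0.13 ± 0.10 (SE, adjusted p = 0.999). Taken as a ratio within each library, which no scaling of libraries can move, miR-132-3p over miR-132-5p was -0.85, -1.13, -1.04 and -1.05 on the log2 scale in AM132, against -0.73, -0.64, -0.82 and -0.75 in AM608. Every AM132 library lay below every AM608 library. AM132 averaged -1.02 ± 0.12, against -0.73 ± 0.07 for AM608 (SD over 4 libraries per group). The difference of -0.28 gave an exact permutation p of 0.0286, 2-sided, the smallest that 4 against 4 libraries allow. The gap between the groups was narrow, between AM132 1 and AM608 3. With replicate numbers as pairs the same difference gave p = 0.125, the smallest that 16 exact sign flips allow, and without any one AM608 library p was 0.0571 (exact permutation test). Against AM608, the AM132 mean was lower for miR-132-3p and higher for miR-132-5p, and neither arm's own level passed a test.

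miR-212-3p, which shares the seed of miR-132-3p and differs from it after the seed, was much less abundant, at 67.5, 61.7, 56.8 and 68.2 CPM in AM132 and 71.6, 69.8, 66.1 and 56.7 CPM in AM608 (log2 fold change -0.05 ± 0.12, SE). miR-212-5p was at 2457, 1967, 1244 and 1958 CPM in AM132, against 2139, 1717, 1671 and 1490 in AM608 (0.12 ± 0.19). Both adjusted p-values were 0.999. The log2 ratio of miR-212-3p to miR-212-5p averaged -4.87 ± 0.31 in AM132 and -4.72 ± 0.12 in AM608 (SD over 4 libraries per group; exact permutation p = 0.4), and these groups overlapped. AM132 3 was the lowest AM132 library for all 4 arms, and it was also the library that stood apart most in the whole miRNA table.

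**Figure D1:**
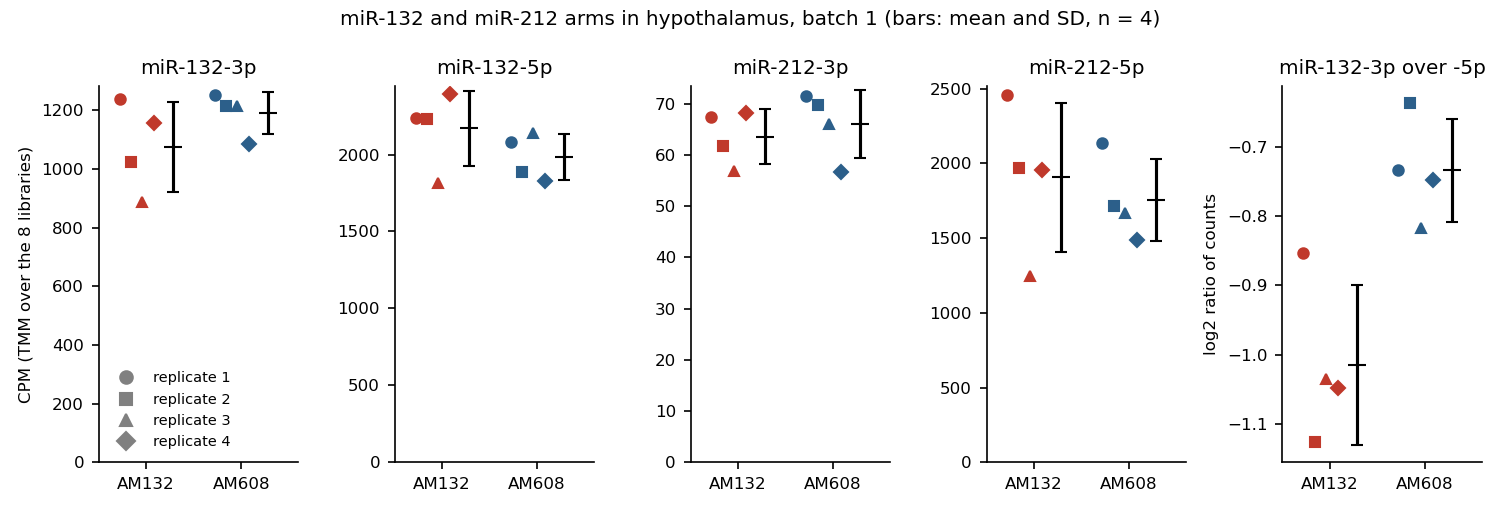
Level in CPM of the 4 arms of miR-132 and miR-212, and the log2 3p-to-5p ratio of miR-132, in each AM132 library (red) and each AM608 library (blue) of batch 1. Symbols give the replicate number, and the black mark and bar beside each group are the mean and SD of 4 libraries; the ratio is the panel in which the groups do not overlap.

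Across the table, 0 of 527 miRNAs passed an adjusted p of 0.05 in edgeR (0% called), and 0 passed in DESeq2. At an unadjusted p under 0.05, edgeR gave 1 miRNA (0.19% of those tested) and DESeq2 gave 0; with any 1 library left out edgeR gave 3 to 9. The groups did not overlap for 2 miRNAs, miR-152-5p and miR-7044-3p (0.38%), both lower in AM132. The fitted log2 fold changes had a median of 0.01 and ran between -0.66 and 1.09, with 274 positive and 253 negative. Scaling by TMM over both tables gave a median of 0.08, with 149 negative. The extreme of 1.09 belonged to miR-187-3p, at 35.9, 27.56, 272 and 29.9 CPM in AM132 and 22.7, 27.2, 90.7 and 31.3 CPM in AM608. It was high in AM132 3 and in AM608 3, the libraries that stand apart, and near 30 CPM or lower in most others.

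**Figure D2:**
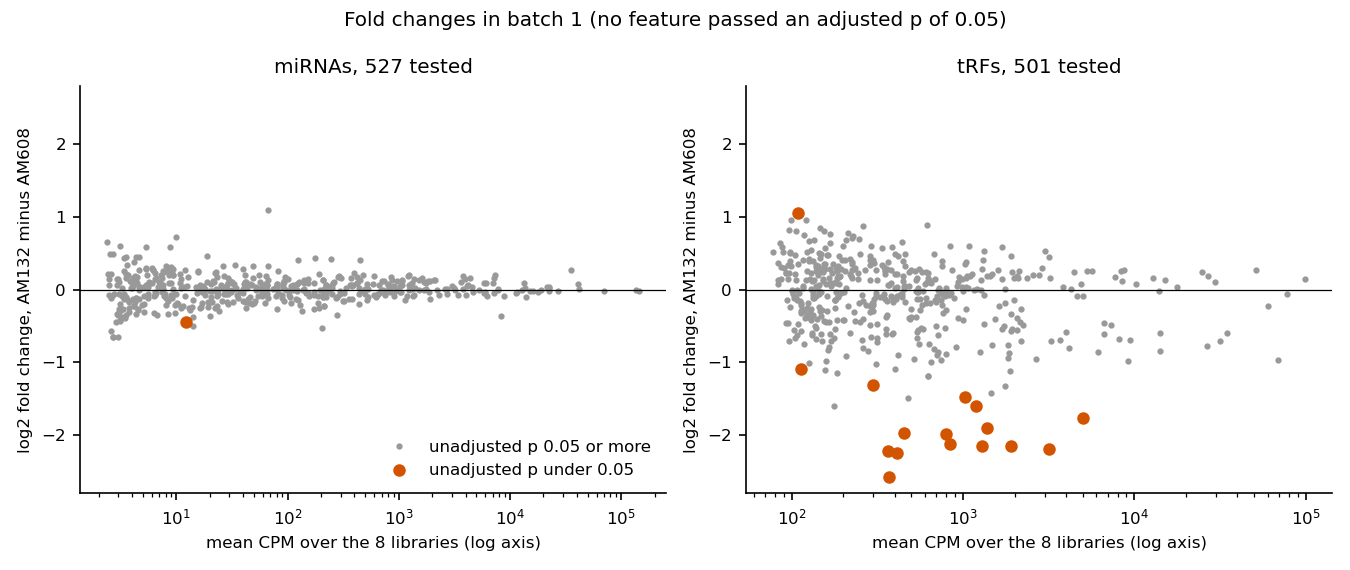
Fitted log2 fold change, AM132 minus AM608, against the mean CPM over the 8 libraries (log axis) for 527 miRNAs and 501 tRFs, each point 1 feature. Orange points have an unadjusted p under 0.05 (1 miRNA and 16 tRFs), and the tRFs spread more widely than the miRNAs at every level.

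The miRNAs of smallest p are described with their values, and none of them passed the adjusted threshold (adjusted p = 0.999 in edgeR for each). miR-378b, a member of a seed family best known from the metabolic miRNA miR-378a, was the one with an unadjusted p under 0.05 (0.0300). Its sequence is from RefSeq, with the seed in capitals.
miR-378b: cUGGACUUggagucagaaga
Its hairpin lies at chr11:88352773-88352864 on the plus strand, opposite an intron of Msi2. It was at 9.80, 10.6, 11.6 and 8.85 CPM in AM132 and at 16.7, 13.2, 15.11 and 11.0 CPM in AM608, a low level, and AM608 4 fell within the AM132 values. Its log2 fold change was -0.45 ± 0.17 (SE).

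miR-152 comes from an intron of Copz2 at chr11:96850393-96850465, on the strand of that gene. Both of its arms are shown because both had lower fitted values in AM132.
miR-152-3p: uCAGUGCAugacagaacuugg
miR-152-5p: uAGGUUCUgugauacacuccgacu
miR-152-3p, of the miR-148 seed family, was at 168, 153.2, 194.3 and 184.6 CPM in AM132 and at 180, 207, 250 and 194.2 CPM in AM608 (log2 fold change -0.25 ± 0.13, SE). The minor arm miR-152-5p was at 7.35, 7.27, 7.73 and 7.30 CPM in AM132 and at 8.35, 8.24, 12.3 and 8.75 CPM in AM608, groups that do not overlap (-0.34 ± 0.18). The highest AM608 value of both arms was in AM608 3. miR-664-3p, whose hairpin lies within the snoRNA gene Snora36b in an intron of Rab3gap2, was at 69.7, 67.0, 79.5 and 76.3 CPM in AM132 and at 83.2, 106.9, 90.1 and 71.3 CPM in AM608 (-0.26 ± 0.14).

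Among the miRNAs with a positive fold change, miR-344c-3p, from a brain-expressed imprinted region of chromosome 7, was at 81.1, 83.1, 104 and 85.9 CPM in AM132 and at 71.9, 67.6, 70.5 and 85.5 CPM in AM608 (0.26 ± 0.13, SE). The values of AM132 2, 1 and 4 straddled that of AM608 4, and AM132 3 was the highest library. miR-744-5p, from an intron of Map2k4, was at 1842, 1733, 1581 and 1705 CPM in AM132 and at 1565, 1506, 1440 and 1642 CPM in AM608 (0.16 ± 0.08). miR-34c-5p, a miRNA of ciliated cells such as those lining the ventricles, was at 213, 114, 136.6 and 104 CPM in AM132 and at 108, 97.8, 95.4 and 127.2 CPM in AM608 (0.40 ± 0.22), and AM132 1 was the highest. Its partner arm miR-34c-3p had 6 to 16 counts in AM132 and 7 to 18 in AM608 and was too low to test here. miR-10a-5p, encoded among the Hox genes, was at 73.7, 71.2, 91.8 and 57.8 CPM in AM132 and at 52.2, 54.7, 76.4 and 52.0 CPM in AM608 (0.32 ± 0.18). Replicate 3 was the highest library in both groups.

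The other miRNAs named by rank of p lay within ±0.51 log2 units. Positive values were 0.33 for miR-92b-5p, 0.20 for miR-342-5p, 0.19 for miR-543-3p and 0.14 for miR-330-5p. With any 1 library left out, miR-92b-5p ran between 0.13 and 0.46 and miR-543-3p between 0.083 and 0.24. Negative values were -0.51 for miR-15b-5p (-0.67 to -0.18 with any 1 library left out), -0.37 for miR-331-5p, -0.23 for miR-300-5p, -0.21 for miR-376b-3p and -0.19 for miR-450a-5p. let-7b-3p, chosen from earlier results of these data, was at 17.7, 19.2, 22.2 and 15.5 CPM in AM132 and at 25.1, 19.5, 22.7 and 17.3 CPM in AM608 (-0.17 ± 0.17, SE).

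The series title names miR-194-5p, a liver and gut miRNA made from a shared transcript with miR-192. In this hypothalamus batch it was at 239, 297, 276 and 269 CPM in AM132 and at 244, 263, 239 and 256 CPM in AM608. The log2 fold change was 0.11 ± 0.10 (SE; 95% interval -0.12 to 0.34; adjusted p = 0.999). miR-192-5p was at 167, 180, 183.2 and 184.6 CPM in AM132 and at 159, 170, 172 and 170 CPM in AM608 (0.09 ± 0.09). Other members of the family, such as miR-215-5p at 6 to 10 counts in AM132 and 3 to 17 in AM608, were too low to test.

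The most abundant miRNAs were those of brain. miR-128-3p, a neuronal miRNA, was at 163098, 157437, 110672 and 148107 CPM in AM132 and at 156006, 141306, 164139 and 125479 CPM in AM608, and AM132 3 was the lowest. Its log2 fold change was -0.02 ± 0.13 (SE), with a 95% interval of -0.31 to 0.27. The fold changes of miR-9-5p, miR-26a-5p, let-7f-5p and miR-99a-5p lay between -0.01 and 0.08. miR-7a-5p, which is rich in neuroendocrine cells and is known to act in hypothalamic neurons that control feeding, was at 49928, 41897, 29238 and 34832 CPM in AM132 and at 39430, 31651, 21405 and 37097 CPM in AM608 (0.27 ± 0.21). Replicate 3 was the lowest of each group.

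The marker and pathway lists were described by their counts and medians, beside a median of 0.01 over all tested miRNAs; 0 of their members passed the test. In bulk tissue, fewer cells of a type and less of a miRNA per cell cannot be told apart. All 22 neuronal miRNAs of the list were tested and summed to 309161 to 418523 CPM in AM132 and 348487 to 402073 CPM in AM608; the list's neuronal markers were thus abundant, as the tissue label implies. Of these, 10 had positive and 12 negative fold changes (median -0.01). The 13 tested members of the energy-balance list (median 0.01), the 17 of the lipid-metabolism list (0.01), the 51 of the imprinted Dlk1-Dio3 cluster (-0.01), the 9 let-7 guide arms (0.01) and the 11 let-7 passenger arms (-0.01) centred within 0.02 of 0. These signs depended on the scaling: with TMM over both tables, positive values were those of 16 of 22 neuronal, 12 of 13 energy-balance, 15 of 17 lipid-metabolism and 39 of 51 Dlk1-Dio3 miRNAs and of all 9 let-7 guide arms. The let-7 guide arms were also all positive without AM132 3 and all negative without AM132 2, and the energy-balance median ran between -0.10 without AM132 2 and 0.16 without AM132 4. The miR-17/92 clusters, known for roles in cell growth, had 2 positive and 8 negative members (median -0.17; -0.26 without AM132 3 and -0.075 without AM608 4).

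Lists of glial, vascular and epithelial miRNAs had values that followed single libraries. Oligodendrocyte miRNAs (miR-219 and miR-338, which promote myelination, and miR-23a) averaged 6.83, 6.67, 8.36 and 7.22 log2 CPM in AM132 and 6.70, 6.84, 7.79 and 7.10 in AM608. Replicate 3 was the highest library of each group. In a single marker, miR-338-3p, AM132 3 held 424 CPM beside 102.95 to 162 in the other AM132 libraries, and AM608 3 held 234 CPM beside 103.3 to 147 in the other AM608 libraries. The list had 4 positive and 1 negative fold changes (median 0.41), and without AM132 3 all 5 were negative (median -0.29). Endothelial and mural miRNAs (miR-126 of endothelium; miR-143 and miR-145 of smooth muscle and pericytes) averaged 8.77, 8.76, 9.72 and 9.03 log2 CPM in AM132 and 8.93, 9.02, 10.134 and 9.26 in AM608. All 6 fold changes were negative (median -0.35), and without AM608 3, 4 of 6 were positive (median 0.08).

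Erythroid miRNAs (miR-451a, miR-144 and miR-486, which are abundant in red blood cells) averaged 7.08, 7.89, 7.50 and 6.79 log2 CPM in AM132 and 6.61, 6.96, 7.10 and 8.49 in AM608, and AM608 4 was the highest. Their median fold change was -0.15, and it was 0.46 without AM608 4. Pituitary and epithelial miRNAs (miR-7, miR-375, the miR-200 family and the miR-183 cluster) averaged 6.77, 6.81, 6.05 and 5.95 log2 CPM in AM132 and 5.40, 6.21, 6.21 and 6.64 in AM608. Here 10 of 11 fold changes were positive (median 0.14), and without AM132 1 and AM608 1, 3 of 11 were (median -0.19). miR-200a-3p, an epithelial miRNA, was at 52.8, 79.1, 17.2 and 24.8 CPM in AM132 and at 8.65, 48.3, 16.5 and 67.7 CPM in AM608, a wide spread inside each group. The 4 muscle miRNAs summed to 222.8 to 691 CPM in AM132 and to 260 to 519 CPM in AM608, highest in replicate 3 of each group, and without AM132 3 all 4 fold changes were negative (median -0.29). The 7 myeloid, 5 astrocyte (miR-29), 9 choroid plexus and ciliated-cell and 2 Hox-linked miRNAs had medians between -0.01 and 0.07, and these too moved with single libraries. Without AM132 3 all 7 myeloid fold changes were negative (median -0.18). The astrocyte median was 0.05 without AM132 1 and -0.08 without AM132 3. The choroid plexus and ciliated-cell median was 0.22 without AM608 3 and -0.01 without AM132 1, and the Hox-linked one 0.19 without AM608 3 and -0.01 without AM132 2. The part of tissue composition in the fold changes of single miRNAs was not tested.

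**Figure D3:**
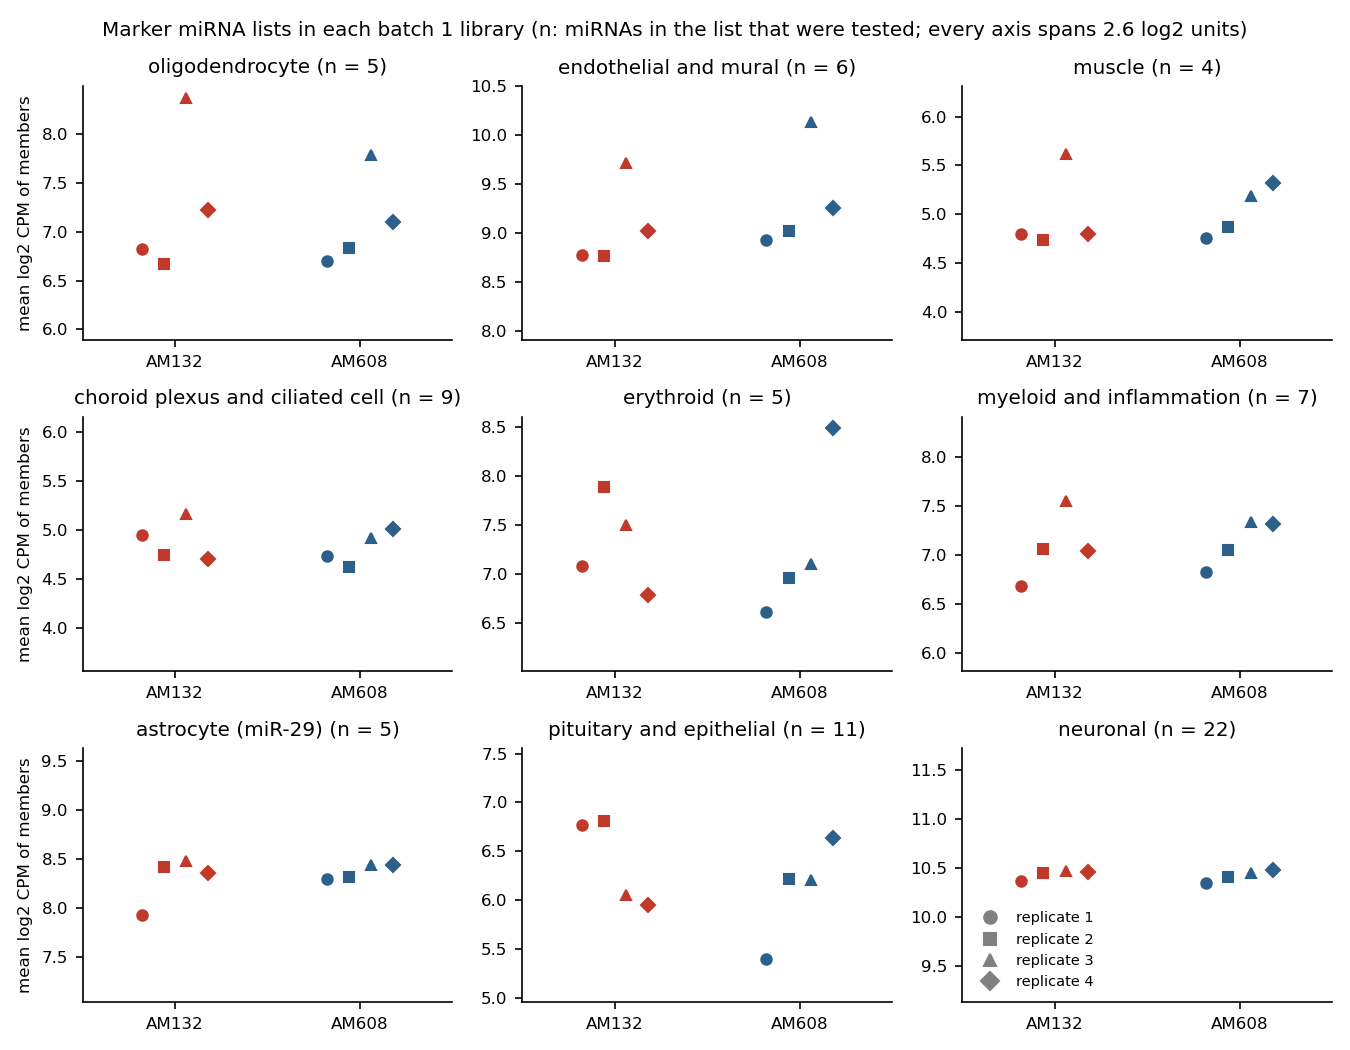
Mean log2 CPM of the tested members of 9 marker lists in each AM132 library (red) and AM608 library (blue), with symbols for the replicate number and the same span of 2.6 log2 units on every axis. Replicate 3 of both groups is high for oligodendrocyte and vascular lists, AM608 4 is high for the erythroid list, and the neuronal list is nearly level.

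LysCTT fragments took 35.1 ± 6.7% of tRF counts in AM132 and 38.8 ± 8.2% in AM608 (SD over 4 libraries per group). The fragments that the tRF results turn on are shown in sets, as the count table lists them (T for U). Capitals mark the longest run shared by all fragments of a set, and all other bases stand in lower case. The HisGTG set has a 5' piece and 3 internal pieces whose first base is at position 2 or 3 of the tRNA, while the 5' piece carries the extra G before position 1.
tRF-31-6SXMSL73VL4YD (5'-tRF): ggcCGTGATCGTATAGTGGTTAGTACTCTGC
tRF-30-34HWH3RXSINH (i-tRF): cCGTGATCGTATAGTGGTTAGTACTCTGCg
tRF-33-MUWLV47PU9XW0N (i-tRF): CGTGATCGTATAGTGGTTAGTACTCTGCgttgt
tRF-34-MUWLV47PU9XWK0 (i-tRF): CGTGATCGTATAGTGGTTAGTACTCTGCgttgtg
The LysCTT set has a piece of 50 nt that runs past the anticodon, the abundant 5'-half of 35 nt, and an internal piece. Just after the shared run the 5'-half has an A where the 50-nt and internal pieces have a G, so it is not a shorter form of the 50-nt piece.
tRF-50-PSQP4PW3FJIKE7UMKKSW (5'-tRF): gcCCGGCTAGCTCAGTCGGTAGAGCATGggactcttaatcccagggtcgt
tRF-35-PSQP4PW3FJI0E7 (5'-half): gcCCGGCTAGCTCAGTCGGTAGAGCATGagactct
tRF-30-3JVIJMRPFQRD (i-tRF): CCGGCTAGCTCAGTCGGTAGAGCATGggac
A GlyCCC internal fragment is printed for its separation of the groups, which was narrow and at low counts.
tRF-36-3IRW18V6XO59KND (i-tRF): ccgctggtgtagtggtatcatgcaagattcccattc

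Of 501 tRFs, 0 passed an adjusted p of 0.05 in edgeR (0% called) and 0 in DESeq2. At an unadjusted p under 0.05 there were 16 (3.19%), 1 with a positive and 15 with a negative fold change. Groups did not overlap for 5 tRFs (0.998%), 2 higher (0.399%) and 3 lower (0.599%) in AM132. The median log2 fold change over all 501 was -0.02, with 240 positive and 261 negative. Scaling the tRFs by factors from both tables together gave a median of -0.17, with 174 positive and 327 negative, so the signs of small tRF fold changes depended on the scaling. Which scaling is nearer the truth was not tested. Only the GlyCCC fragment tRF-36-3IRW18V6XO59KND had an unadjusted p under 0.05 with a positive fold change. It was at 160, 153.8, 167 and 109 CPM in AM132 and at 45.8, 41.9, 84.7 and 106.4 CPM in AM608, with the lowest AM132 library just above the highest AM608 library (1.05 ± 0.41, SE; adjusted p = 0.992 in edgeR). Those 2 libraries, AM132 4 and AM608 4, had scaled tRF depths of 110525 and 122144. Their levels thus stand for few counts each, and the gap between them is within counting error. A 5' fragment of MetCAT of 50 nt, tRF-50-FP18LPMBQ4NKKQBRFKWE, was at 88.6, 38.4, 62.6 and 99.5 CPM in AM132 and at 149, 133.9, 230 and 106.4 CPM in AM608 (-1.09 ± 0.42). The other 3 that did not overlap were a pair of MetCAT 3'-tRFs that differ by 1 nt in length and had fold changes of opposite sign, tRF-20-WB0Q37Q5 at -0.62 ± 0.35 and tRF-21-WB0Q37Q5D at 0.49 ± 0.34, and the GluTTC 5'-half tRF-32-86V8WPMN1E8YN at -0.47 ± 0.33.

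Internal fragments of HisGTG made up 12 of the 16 tRFs with an unadjusted p under 0.05, and this count rested on single libraries. None of the 12 internal HisGTG fragments was left without AM608 1, without AM132 1 or with the replicate block, and 2 internal HisGTG fragments had such a p without AM132 3. tRF-34-MUWLV47PU9XWK0 was at 461, 1278, 960 and 1864 CPM in AM132 and at 15329, 3214, 1295 and 1163 CPM in AM608. AM608 1 held most of the AM608 signal, AM132 1 was the lowest library, and the other 6 overlapped. The log2 fold change was -2.20 ± 0.82 (SE; adjusted p = 0.992 in edgeR). tRF-33-MUWLV47PU9XW0N was at 35.5, 86.5, 93.9 and 190 CPM in AM132 and at 1902, 452, 133.1 and 65.5 CPM in AM608 (-2.58 ± 0.92), and tRF-30-34HWH3RXSINH at 195, 586, 490 and 624 CPM in AM132 and at 6106, 1314, 617 and 433.9 CPM in AM608 (-2.14 ± 0.79). The same library, AM608 1, led each time. Of the 15 internal HisGTG fragments tested, 14 had a negative fold change, with a median of -1.99; the median was -0.74 without AM608 1, and -0.48 without AM132 1 and AM608 1. With no filter on low counts, which raised the number tested to 7901, 10 tRFs passed in edgeR, and 9 of them were internal HisGTG fragments of the 2 start positions shown; tRF-33-MUWLV47PU9XW0N then had an adjusted p of 0.00316.

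The 5' pieces of the same tRNA had other values. tRF-31-6SXMSL73VL4YD, which holds the same 28-base run, was at 1578, 894, 1513 and 742 CPM in AM132 and at 619, 1256, 835 and 917 CPM in AM608 (0.38 ± 0.41, SE). AM608 1, the highest library for the internal fragments, was the lowest for this one. tRF-34-6SXMSL73VL4YHE was at 4946, 2384, 4027 and 3366 CPM in AM132 and at 3300, 3047, 1706 and 2677 CPM in AM608 (0.46 ± 0.41). The 11 HisGTG 5'-halves had a median of 0.05 and the 11 5'-tRFs one of -0.03. Whether internal and 5' pieces differ in their fold change was not tested.

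Lysine fragments, which the series title names, had 33 positive and 78 negative fold changes among 111 tested (median -0.37); 0 passed. The 71 internal ones gave most of this, with 61 negative (median -0.55), and without AM132 1 and AM608 1 the signs turned, with 48 of 70 positive (median 0.11). The internal LysTTT fragment tRF-31-32VIJMRPFQJDE was at 248, 1153, 762 and 1810 CPM in AM132 and at 6381, 1892, 992 and 778 CPM in AM608 (-1.33 ± 0.74, SE). It was again highest in AM608 1 and lowest in AM132 1. tRF-30-3JVIJMRPFQRD was at 160, 615.2, 459 and 778 CPM in AM132 and at 1971, 879, 557 and 565 CPM in AM608 (-0.96 ± 0.56). The 13 lysine 5'-halves had a median of 0.08. Their most abundant member, tRF-35-PSQP4PW3FJI0E7, was at 22125, 121806, 105474 and 169572 CPM in AM132 and at 114545, 108152, 81912 and 73945 CPM in AM608 (0.15 ± 0.58), and AM132 1 alone lay far below the rest.

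The LysCTT piece of 50 nt varied widely inside the groups. tRF-50-PSQP4PW3FJIKE7UMKKSW was at 87153, 606, 68887 and 30645 CPM in AM132 and at 20588, 195318, 140976 and 7802 CPM in AM608. AM132 2 lay far below every other library, and AM608 2 and AM608 3 were the highest. The log2 fold change of -0.96 ± 1.16 (SE; 95% interval -3.49 to 1.57) bounds little. All 5 tested LysCTT 5'-tRFs of 48 to 50 nt were negative (median -0.96) and followed the same order of libraries at the low end, with AM132 2 lowest for each.

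Glutamate fragments had 33 positive and 60 negative fold changes among 93 tested (median -0.10). Leucine fragments had 35 positive and 15 negative among 50 tested (median 0.25), and 22 positive and 28 negative without AM132 1 (median -0.04). The LeuTAG fragment tRF-35-9EYK46S9Y81H93 had the second smallest p of all tRFs (0.0184) with a fold change of -1.31 ± 0.48. Its groups overlapped. In log2 CPM scaled over the 32 libraries, AM608 4 was at 7.17, within the AM132 values of 7.03 to 8.01. AM608 1, AM608 2 and AM608 3 were at 9.03, 8.93 and 8.85. Glycine fragments had 43 positive and 28 negative fold changes among 71 (median 0.09; -0.05 without AM608 2). No member of these groups passed.

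By fragment type, 5'-halves took 33.2 ± 4.6% of tRF counts in AM132 and 28.3 ± 5.6% in AM608 (SD over 4 libraries per group). Internal fragments took 26.4%, 34.97%, 27.2% and 33.3% in AM132 and 52.1%, 29.9%, 29.7% and 32.4% in AM608, and AM608 1 stood out. 5'-tRFs took 29.8 ± 6.0% in AM132 and 30.1 ± 10.4% in AM608, 3'-tRFs 5.57 ± 1.91% and 4.71 ± 1.29%, and 3'-halves 1.07 ± 0.24% and 0.88 ± 0.32%. Lysine fragments of all types took 39.03 ± 8.0% in AM132 and 43.3 ± 8.1% in AM608. All of these groups overlapped. None of the 6 shares passed a 2-sided exact permutation test (p = 0.257 to 0.914; adjusted over the 6 shares 0.651 to 0.914).

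**Figure D4:**
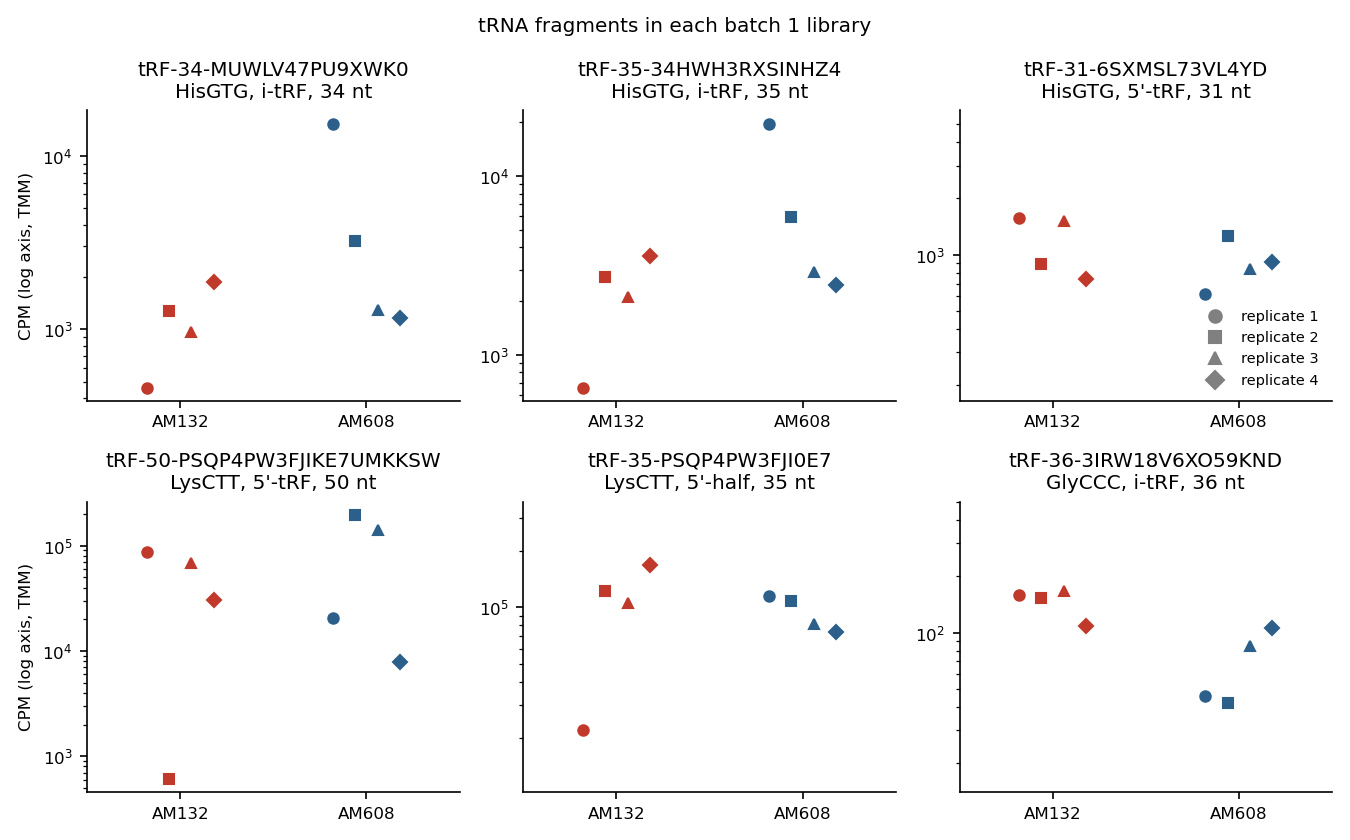
Level in CPM, on log axes whose span differs between panels, of 6 tRNA fragments in each AM132 library (red) and AM608 library (blue), with symbols for the replicate number. AM608 1 is the highest and AM132 1 the lowest library for both internal HisGTG fragments, and AM132 2 is far below the rest for the 50-nt LysCTT piece. The groups separate narrowly, and at low counts, for the GlyCCC fragment.

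Whether the effect of AM132 differed between batch 1 and the other batches was tested in a fit of 32 libraries with 1 mean for each group and batch. For miRNAs, 0 of 611 tested differed between batch 1 and batch 2 (0% called; 21 at an unadjusted p under 0.05), and 0 between batch 1 and batch 3 (0%; 35 unadjusted). In this fit the log2 fold change of miR-132-3p in batch 1 was -0.17 ± 0.30, against -0.74 ± 0.22 for batch 2 and -0.19 ± 0.30 for batch 3 (SE). The batch 2 effect did not pass an adjusted p of 0.05 in edgeR. In that batch AM132 6 was at 5.96 log2 CPM, beside 8.44 to 9.08 in the other AM132 libraries and 9.08 to 9.55 in AM608. Batch 1 minus batch 2 was 0.58 ± 0.37 (95% interval -0.18 to 1.34; adjusted p = 0.968 in edgeR), so neither no difference nor a weaker effect in batch 1 by up to 1.34 lay outside the interval. Batch 1 minus batch 3 was 0.02 ± 0.43 (adjusted p = 0.996). The 3p-to-5p ratio of miR-132 was not tested in batches 2 and 3. In batch 3, AM132 13 to 16 were at 9.88, 10.43, 10.28 and 9.97 log2 CPM for miR-132-3p. They were at 10.57, 11.42, 11.36 and 11.08 for miR-132-5p. AM608 13 to 16 were at 10.31, 10.21, 10.59 and 10.25, and at 11.15, 11.48, 11.66 and 11.53, in that order of arms. In batch 2, miR-132-5p ran between 9.82 and 10.25 in AM132 and between 9.93 and 10.23 in AM608. Read from these log2 levels, the 3p-to-5p ratio overlapped between the groups in batch 3. Its AM132 mean there was the higher one, the opposite direction to batch 1. In batch 2 the ratio was lower in every AM132 library than in any AM608 library, with a narrow gap. miR-34c-3p, which had a fold change of 1.102 ± 0.18 in batch 2, had one of 0.16 ± 0.36 in batch 1, where its mean was 3.05 CPM in AM132 and 2.65 CPM in AM608; the difference of -0.95 ± 0.41 did not pass (adjusted p = 0.968). The miRNA of smallest p for batch 1 minus batch 3 with at least 10 CPM was miR-582-3p, a miRNA with a fold change of -0.20 ± 0.15 in batch 1 and 0.64 ± 0.15 in batch 3 (difference -0.84 ± 0.22, adjusted p = 0.359).

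For tRFs, 0 of 754 differed between batch 1 and batch 2 (0%; 18 unadjusted) and 10 between batch 1 and batch 3 (1.33%). Of the 10, 7 were LysCTT 5' pieces of 47 to 50 nt, which overlap in sequence and are not 7 independent results. The 50-nt piece tRF-50-PSQP4PW3FJIKE7UMKKSW averaged 40153 CPM in AM132 and 90337 CPM in AM608 of batch 1, against 126522 CPM in AM132 and 686 CPM in AM608 of batch 3. The fitted difference was -8.70 (adjusted p = 0.0261 in edgeR). Batch 3 also varied widely inside its groups for this piece. AM132 13 was at 9.41 log2 CPM beside 15.91 to 18.11 in AM132 14 to 16, and AM608 16 at 11.31 beside 5.57 to 7.12 in AM608 13 to 15. In AM608 of batch 3, 3 of the 7 pieces were at 0 CPM, and fitted differences against such values depend on the prior count and are no bounds. The other 3 were the GlyCCC fragment tRF-36-3IRW18V6XO59KND, the LeuTAG fragment tRF-35-9EYK46S9Y81H93 and tRF-50-R9J89O9NF5W8E7OMJHHS. tRF-36-3IRW18V6XO59KND averaged 133.2 CPM in AM132 and 61.5 CPM in AM608 of batch 1, against 91.1 and 98.1 CPM in batch 2 and 55.9 and 102 CPM in batch 3, AM132 named first each time. Its batch 1 minus batch 3 difference was 1.92 ± 0.50 (adjusted p = 0.0440), and that of batch 1 minus batch 2 was 1.18 ± 0.44 (adjusted p = 0.997). tRF-35-9EYK46S9Y81H93 differed by -3.36 (adjusted p = 0.0396) and tRF-50-R9J89O9NF5W8E7OMJHHS by -3.19 (adjusted p = 0.0266).

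**Figure D5:**
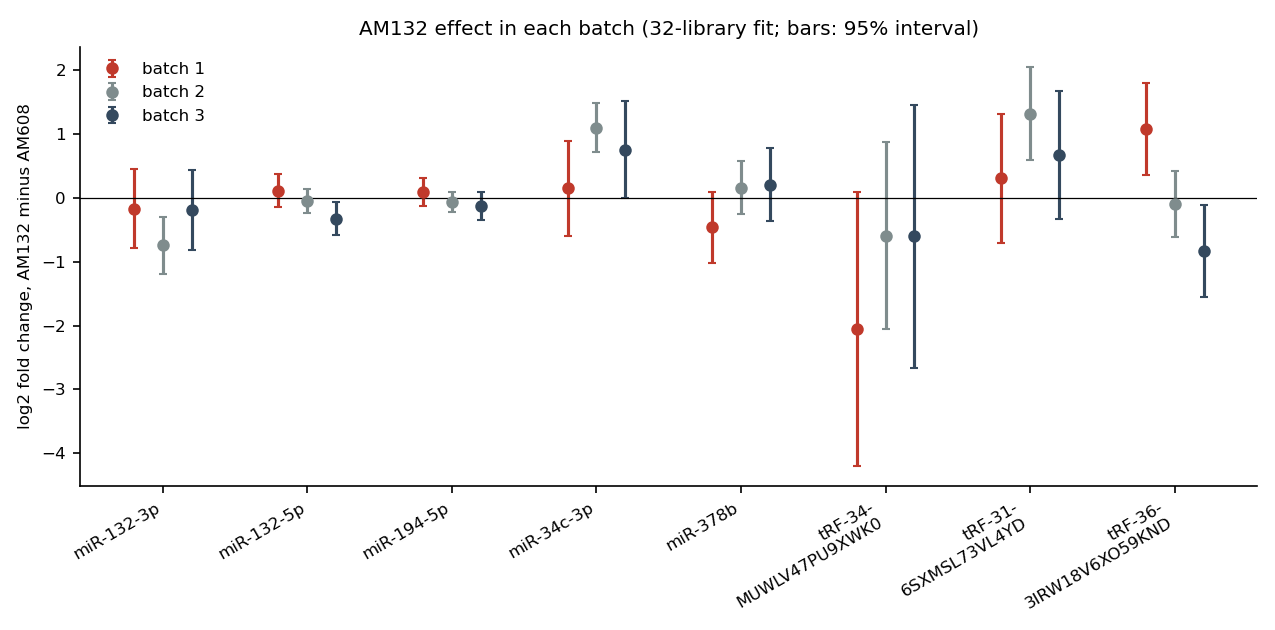
Log2 fold change of AM132 minus AM608 in batch 1 (red), batch 2 (grey) and batch 3 (dark blue), from the 32-library fit, for 5 miRNAs and 3 tRFs; bars are 95% intervals. The batch 1 interval of miR-132-3p includes 0 and overlaps that of batch 2, and the GlyCCC fragment tRF-36-3IRW18V6XO59KND is the one whose batch 1 interval lies above 0.

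In level, batch 1 differed from batch 2 for many more miRNAs than from batch 3, which held fewer libraries. Averaged over AM132 and AM608, the level in batch 1 differed from the mean of batches 2 and 3 for 250 of 611 miRNAs (40.9%), upward for 21.1% and downward for 19.8% of those tested. In comparisons chosen after the values were seen, 395 miRNAs differed from batch 2 alone (64.6%) and 5 from batch 3 alone (0.818%), and each named miRNA that follows passed against batch 2 and did not pass against batch 3. miR-221-3p, a miRNA of vascular and proliferating cells, averaged 4619 CPM in AM132 and 4489 CPM in AM608 of batch 1, against 1145 and 1078 CPM in batch 2 and 4026 and 4165 CPM in batch 3 (1.09 ± 0.12 log2, SE). miR-31-5p, miR-221-5p, miR-128-3p and miR-139-5p were higher by 0.80 to 0.87 in batch 1 than in that mean, which was made up of log2 differences of 1.94, 1.59, 1.90 and 1.696 from batch 2 and of -0.20, 0.14, -0.26 and -0.10 from batch 3, in that order. miR-375-3p, which pituitary and other endocrine cells carry, averaged 34.95 CPM in AM132 and 32.8 CPM in AM608 of batch 1, against 254 and 1798 CPM in batch 2 and 36.2 and 37.8 CPM in batch 3 (-2.23 ± 0.88). AM608 5 of batch 2 carried much of this, at 13.74 log2 CPM beside 6.09 to 7.61 in the other AM608 libraries of that batch. Without AM132 5, AM132 6 and AM608 5 the log2 difference of miR-375-3p was -0.83 and passed in edgeR, and with no filter on low counts its call was lost (adjusted p = 0.0618 in edgeR). miR-34c-5p averaged 157 and 120 CPM in batch 1, against 1294 and 1198 CPM in batch 2 and 150 and 109 CPM in batch 3 (-1.54 ± 0.12). miR-758-3p, miR-298-5p and miR-672-5p had log2 differences between -1.11 and -0.83, made up of -2.12, -2.34 and -1.66 from batch 2 and of -0.10, 0.17 and 0.0020 from batch 3.

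The level of miR-132-3p was itself 0.68 ± 0.17 log2 higher in batch 1 than in the mean of batches 2 and 3 (adjusted p = 0.00206 in edgeR). It averaged 1191 CPM in AM132 and 1336 CPM in AM608 of batch 1, against 391 and 654 CPM in batch 2 and 1142 and 1303 CPM in batch 3. The log2 difference was 1.32 ± 0.18 from batch 2 and 0.05 ± 0.21 from batch 3 (SE; adjusted p = 0.997). For tRFs, 19 of 754 differed in level (2.52%), 5 upward (0.663%) and 14 downward (1.86%) in batch 1. From batch 2 alone 25.5% differed, and from batch 3 alone 1 did (0.133%). The tRF with the largest positive change, tRF-35-PNR8YO9LON4V4R, averaged 270 and 300 CPM in AM132 and AM608 of batch 1, against 20.1 and 32.5 CPM in batch 2 and 313 and 252 CPM in batch 3 (1.72 ± 0.36). A glutamine internal fragment, tRF-24-DRFU8U76ED, averaged 217 and 136.02 CPM in batch 1, against 1104 and 1140 CPM in batch 2 and 183.1 and 184.7 CPM in batch 3 (-1.39 ± 0.22). Mice, dissection, library preparation and sequencing run cannot be told apart as differences between batches.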

How the data were processed

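Hypothalamus small RNA libraries were made from 200 ng RNA with NEBNext chemistry and sequenced on a NextSeq 500, per the labels' protocols. The authors deposited 2 tables of raw counts without normalisation, for mature miRNAs and for tRFs. FastQC is listed in the submitters' processing notes, and trimming, aligner and reference builds are not given in the sources used here. tRNA names follow the tRF table, whose reference is unstated, so tRF coordinates are left out. The rule for reads shared by similar miRNAs is not stated, and 14 tested miRNAs have the counts of another.

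Using edgeR 4.0.16 in R 4.3.3, low features were removed by filterByExpr (at least 10 counts, 15 in total), libraries were scaled by TMM for each table on its own, and quasi-likelihood F tests were adjusted by the Benjamini-Hochberg method (threshold 0.05). The 8 libraries of batch 1 were fitted with no replicate block, and contrasts between batches used 32 libraries. Levels are CPM, with a prior count of 2 on log2 scales; 0.5 was added to counts in ratios. Single values were compared by exact permutation tests, 2-sided. Alternatives were RLE scaling, TMM over both tables, DESeq2 1.42.0, other filters, the replicate block and each library left out; chosen after the values were seen were the fits without replicate 3, or without replicate 1, of both groups, and each other batch alone. Within each group, no pair of libraries had the same counts within sampling noise. All 44 columns of each table matched the labels, and 0 were of other samples. The main edgeR fits of batch 1, for miRNAs and for tRFs, were each checked on simulated data in which 200 features changed. The 32-library fit and the alternatives were not checked in this way.

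The members and 18 miRNA lists were chosen with earlier results of these data known. By rule, the text names up to 8 miRNAs and 5 tRFs per direction by p with a mean of at least 10 CPM, the miR-132 and miR-194 families, members of smallest p from other lists, the 5 most abundant features, 4 lysine and 4 HisGTG tRFs, 3 miRNAs discussed in the earlier results, and between batches those of smallest p or largest change above 100 CPM; not all are described. Named after their values were seen were miR-187-3p, miR-200a-3p, miR-7044-3p, the tRFs whose groups do not overlap and the other LysCTT pieces printed. Some tRFs that the rule names are not reported here. RefSeq gave miRNA sequences and positions (GRCm38.p6), and GENCODE the host genes. Figures were drawn with matplotlib 3.10.9.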

Additional observations from a re-analysis of the deposited data

Results flagged for a closer look

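In 8 of 158 groups of 4 libraries, 1 library lay far from the other 3 by Dixon's gap-to-range criterion at 95%, which chance meets in about 1 group in 20. For miR-331-5p, AM132 3 was at 3.38 log2 CPM and the other AM132 libraries at 3.76 to 3.79. For miR-26a-5p, AM132 2 was at 16.24 log2 CPM and the other AM132 libraries at 16.02 to 16.05. In AM608, miR-10a-5p was at 6.26 log2 CPM in AM608 3 and at 5.71 to 5.79 in the others. miR-192-5p was at 7.32 log2 CPM in AM608 1 and at 7.41 to 7.43 in the others, and let-7c-1-3p at 3.41 in AM608 2 and 3.67 to 3.71 in the others. tRF-21-DRFU8U76B was at 5.78 log2 CPM in AM608 1 and at 6.82 to 6.89 in the others. 5'-halves took 36.6% of tRF counts in AM608 4 and 24.8% to 25.9% in the other AM608 libraries. Internal fragments took 52.1% in AM608 1 and 29.7% to 32.4% in the others.

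For 8 tRFs named here the AM132 effect differed between batch 1 and batch 3 by a test of the difference in edgeR (adjusted p under 0.05). The log2 difference, batch 1 minus batch 3, was 1.92 for tRF-36-3IRW18V6XO59KND, -9.97 for tRF-48-PSQP4PW3FJIKE7UMKK0D, -5.91 for tRF-49-PSQP4PW3FJI0E7UM8K2K and -8.42 for tRF-49-PSQP4PW3FJIKE7UMKK2K. It was -8.89 for tRF-50-PSQP4PW3FJIKE7UM8KSW, -8.70 for tRF-50-PSQP4PW3FJIKE7UMKKSW, -3.19 for tRF-50-R9J89O9NF5W8E7OMJHHS and -3.36 for tRF-35-9EYK46S9Y81H93.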

How the results depend on the processing

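Within batch 1, 0 miRNAs and 0 tRFs passed in edgeR under RLE scaling, TMM over both tables, a stricter filter, the replicate block, the 32-library fit and with any 1 library left out, and DESeq2 gave 0. With no low-count filter 0 miRNAs and 10 tRFs passed. The same filter change gave 24 tRFs for the effect in batch 1 minus batch 3, against 10, and 2 for batch 1 against batches 2 and 3, against 19. Same-numbered libraries of batch 1 did not deviate together in every pair. Correlations of their deviations were 0.28, 0.28, 0.63 and -0.11 for miRNAs and -0.60, -0.30, -0.0021 and -0.41 for tRFs. For miRNAs, AM132 1, AM132 2 and AM132 3 each had their highest correlation with the AM608 library of the same number. The labels do not say that same-numbered libraries share a source, so the numbers were not taken as pairs. With the replicate block, 10 miRNAs and 6 tRFs had an unadjusted p under 0.05, against 1 and 16. Those with such a p numbered 3 to 9 miRNAs and 4 to 31 tRFs with 1 library left out (4 tRFs without AM608 1, 8 without AM132 3 and 31 without AM608 4), 5 tRFs without AM132 3 and AM608 3, 14 and 31 in the 32-library fit, and 29 of 1280 and 169 of 7901 with no low-count filter. The block left the 3p-to-5p ratio of miR-132 at -0.28 (exact p = 0.125), and leaving out 1 library gave -0.34 to -0.24. The share of 5'-tRFs differed by -0.36 percentage points, by 1.94 without fragments of 47 to 50 nt, and by -4.15 to 2.95 with 1 library left out. The share of 3'-tRFs differed by -0.042 to 1.43, lowest without AM132 1. The tRF depth of 42819 to 144316 counts limits what could be detected.

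For 19 named features the sign changed under some alternative, and none of them passed the test under any; the cause was not tested. With TMM over both tables the log2 fold change was 0.023 for miR-212-3p, 0.0056 for let-7b-5p, 0.062 for miR-128-3p, 0.074 for miR-9-5p, 0.058 for miR-26a-5p and -0.050 for tRF-32-6SXMSL73VL4YK. Without AM132 3 and AM608 3 the log2 fold change was -0.0024 for miR-219a-5p, -0.030 for miR-1a-3p, 0.13 for miR-128-3p, 0.061 for miR-9-5p, -0.0015 for tRF-31-6SXMSL73VL4YD, -0.10 for tRF-32-6SXMSL73VL4YK and -0.18 for tRF-32-XSXMSL73VL4YK. Without AM132 1 and AM608 1 the log2 fold change was 0.030 for miR-9-5p, 0.036 for miR-26a-5p, -0.012 for let-7f-5p, -0.022 for tRF-31-6SXMSL73VL4YD and -0.21 for tRF-32-6SXMSL73VL4YK. For let-7f-5p it was -0.0078 under RLE scaling, -0.0078 in DESeq2 and -0.0088 with no low-count filter. With the batch 1 contrast of the 32-library fit the log2 fold change was -0.010 for let-7f-5p. With the replicate block the log2 fold change was -0.084 for tRF-35-PSQP4PW3FJI0E7.

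With 1 library left out, the range was let-7b-5p -0.18 to 0.016, let-7d-5p -0.043 to 0.055, let-7f-5p -0.066 to 0.055, miR-128-3p -0.095 to 0.090, miR-144-3p -0.56 to 0.49, miR-144-5p -0.54 to 0.42, miR-1a-3p -0.32 to 0.45, miR-206-3p -0.53 to 0.11, miR-212-5p -0.039 to 0.28, miR-219a-5p -0.29 to 0.88, miR-26a-5p -0.083 to 0.0084, miR-29c-5p -0.0048 to 0.090, miR-338-3p -0.23 to 0.73 and miR-9-5p -0.075 to 0.074. For tRFs it was tRF-32-6SXMSL73VL4YK -0.087 to 0.35 and tRF-35-PSQP4PW3FJI0E7 -0.22 to 0.52.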
